A study of Mus musculus with 18 samples.

Results

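The genes described here encode the elongation kinase P-TEFb, the proteins of the 7SK particle that holds it inactive, and scaffold and elongation subunits of the super elongation complex. They are Cdk9, Ccnt1 and Ccnt2 (the kinase and its cyclins), Hexim1, Hexim2, Larp7 and Mepce (the 7SK particle), and Aff1, Aff4 and Ell2 (the super elongation complex). They were taken by name, 10 rows of the 37310 genes of the deposited count table, and all 10 passed the filter on low counts that left 15433 genes for testing. RNA of cultured mouse cortical neurons was sequenced in 4 groups of 3 libraries. WT neurons carry the intact Fmr1 gene and Fmr1 KO neurons a knockout of this gene of the RNA-binding protein FMRP. Neurons of each genotype were exposed, from day 7 in culture and for 24 h, either to the vehicle DMSO or to JQ1, a small molecule that occupies the acetyl-lysine pockets of the BET family of chromatin readers. Neurons treated with THZ1 were not analysed here. The labels give no strain, age or sex of the animals and do not say whether the libraries of a group came from separate cultures, and every p-value therefore rests on a spread among these libraries that may be technical.

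P-TEFb is CDK9 bound to cyclin T1 or cyclin T2. It phosphorylates RNA polymerase II and the factors that hold the polymerase paused near the start of a gene, and so allows productive elongation. A large share of P-TEFb in resting cells sits in the 7SK particle, in which the 7SK RNA is capped by MEPCE, shielded by LARP7 and used by HEXIM1 or HEXIM2 as a platform to inhibit CDK9. Released P-TEFb acts at genes within, among others, the super elongation complex, which is built on AFF1 or AFF4 and contains an ELL protein. In neurons, polymerase pausing is known for its place in the rapid induction of activity-dependent genes.

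Promoter sequences are shown for 3 of these genes, an inhibitor, an RNA-binding protein and a cyclin. Their messages were called higher with JQ1 in both genotypes, as were others of the 10 (for Larp7 and Ccnt2 not so under spike-in scaling). All 3 promoters hold a CCAAT box and a GC box, and of these 3 only Hexim1 holds TATATAA and only Larp7 holds TGACGTCA. The Aff4 promoter, of a gene also called higher in both genotypes when centred on all genes, holds neither box. The Ell2 promoter, of a gene not called with JQ1, holds both. Whether the boxes bear on the JQ1 changes was not tested. The sequences come from RefSeq (build GRCm38.p6), whose promoter table matched 8 of the 10 genes, not Hexim2 or Mepce. Each is printed 5′ to 3′ on the strand of its gene, up to the first base of a transcript in RefSeq or GENCODE. Capitals mark the TATA box TATATAA, the CCAAT box, the GC box GGGCGG and the cyclic AMP element TGACGTCA on either strand, and these motifs were chosen with the Hexim1 sequence in view. The stretches lie at chr11:103116075-103116230 (plus strand, Hexim1), chr3:127553350-127553599 (minus strand, Larp7) and chr1:127773914-127774163 (plus strand, Ccnt2).
Hexim1: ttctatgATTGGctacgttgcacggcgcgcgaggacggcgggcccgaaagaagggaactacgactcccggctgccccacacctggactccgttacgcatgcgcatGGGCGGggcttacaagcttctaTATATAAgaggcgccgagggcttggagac
Larp7: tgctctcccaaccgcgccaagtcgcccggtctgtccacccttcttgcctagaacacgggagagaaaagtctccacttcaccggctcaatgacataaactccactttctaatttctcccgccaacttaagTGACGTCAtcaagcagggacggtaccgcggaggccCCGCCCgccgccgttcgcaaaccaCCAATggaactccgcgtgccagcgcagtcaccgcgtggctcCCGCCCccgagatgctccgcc
Ccnt2: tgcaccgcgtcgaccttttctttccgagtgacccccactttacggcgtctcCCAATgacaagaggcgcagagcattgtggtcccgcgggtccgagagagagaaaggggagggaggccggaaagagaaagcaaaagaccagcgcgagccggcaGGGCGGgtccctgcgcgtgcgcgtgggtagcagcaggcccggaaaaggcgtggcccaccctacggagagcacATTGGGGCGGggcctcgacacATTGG
The Hexim1 stretch holds TATATAA starting 29 bases before the GENCODE start, a position 123 bases before the RefSeq start. That motif is in 3.04% of the 32851 promoters of the table (250 bases before the start) and in 1 of the 9 promoters of these 8 genes (Aff1 has a pair), and TATAAA is in 12.37% of the table and in 0 of the 9. GGGCGG, the GC box, is in 8 of the 9 promoters and in 32.74% of the table, and CCAAT is in 5 of the 9 and in 33.85%. The counted stretches of Cdk9, Aff1, Ell2 and Ccnt1 lie inside the GENCODE gene, which starts 292 to 62199 bases before the RefSeq start. The cyclic AMP response element TGACGTCA, seen in the Larp7 stretch and also in the Ell2 promoter, is in 1.55% of the table, and the E-box CACGTG, present in the Aff4 promoter alone among the 9, is in 6.02%. The full stretches of these genes hold 18 to 35 CG pairs, against a median of 6 over the table. That table is not limited to the genes tested here, and no comparison with those was made. In the Hexim1 stretch of 250 bases, 94 lie inside the GENCODE gene. A match is a string of letters only, and no binding was measured.

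Library totals ran from 21643592 to 134110850 gene counts. The Fmr1 message stood at 120.9 ± 2.89 CPM (counts scaled to the effective library size) in WT and at 24.4 ± 4.40 CPM in KO neurons in DMSO (SD, n = 3 each; log2 change -2.31, adjusted p = 9.2e-08, Benjamini-Hochberg method, by the quasi-likelihood test of edgeR). Both KO replicate 3 libraries stood apart from the other 10, with Xist at 4.29 to 4.34 CPM against 231 to 441 and the Y-linked Ddx3y at 54.5 to 76.2 CPM against 28.1 to 46.1, so each comparison with KO neurons was repeated without them. The summed level of 5 neuron markers was 4959 to 5935 CPM in every library. The sum of 4 astrocyte markers was 464 to 566 CPM in WT and 320 to 445 CPM in KO neurons in DMSO, and 345 to 456 and 199 to 346 CPM in JQ1. The sum of 3 fibroblast markers was 25.02 to 33.4, 8.83 to 14.0, 14.4 to 19.7 and 6.17 to 9.87 CPM in the same order, and that of 3 inhibitory neuron markers was 240 to 305, 354 to 391, 241 to 358 and 331 to 408 CPM. For 5 progenitor and cycling cell markers it was 202 to 229, 167 to 209, 240 to 301 and 168 to 222 CPM. None of these markers was at 0 in every library. Some of these sums moved with genotype or with JQ1, and their part in the results was not tested. In DMSO the astrocyte and fibroblast sums were lower in KO than in WT libraries without overlap, and the inhibitory neuron sum was higher. With JQ1 in WT the astrocyte and fibroblast sums fell and the progenitor sum rose, without overlap. In KO neurons these sums overlapped between the treatments, and the inhibitory neuron sum overlapped in both genotypes. The fibroblast sum was mostly Dcn, at 24.1 to 32.1 CPM in WT and 7.74 to 13.1 CPM in KO neurons in DMSO. Of the other fibroblast markers Lum was also lower in KO, and Col1a1 was higher (0.26 to 0.44 against 0.57 to 0.71 CPM). The astrocyte sum was mostly Slc1a3, at 358 to 443 and 225 to 330 CPM in DMSO. Gfap, Aqp4 and Aldh1l1 overlapped between the genotypes there. Aqp4 was at 19.6 to 26.3 CPM in DMSO and 2.43 to 5.11 CPM in JQ1 in WT. In KO neurons it was at 15.2 to 21.8 and 2.80 to 5.13 CPM. Aldh1l1 was also lower with JQ1 in both genotypes without overlap, whereas Slc1a3 overlapped between the treatments in both. Gfap was lower with JQ1 without overlap in WT and overlapped in KO. In such bulk RNA, fewer cells of a type and less RNA per cell cannot be told apart. Log2 changes are centred on the bulk of all genes. Scaling to the ERCC spike-in RNA moved the median log2 change of all genes to -0.63 for JQ1 in WT, 0.067 for JQ1 in KO, -0.82 for KO over WT neurons in DMSO and -0.12 for the same contrast in JQ1. The spike-in rows made up 0.118% to 0.348% of a library and varied from 0.168% to 0.348% within the 3 KO libraries in DMSO.

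**Figure D1:**
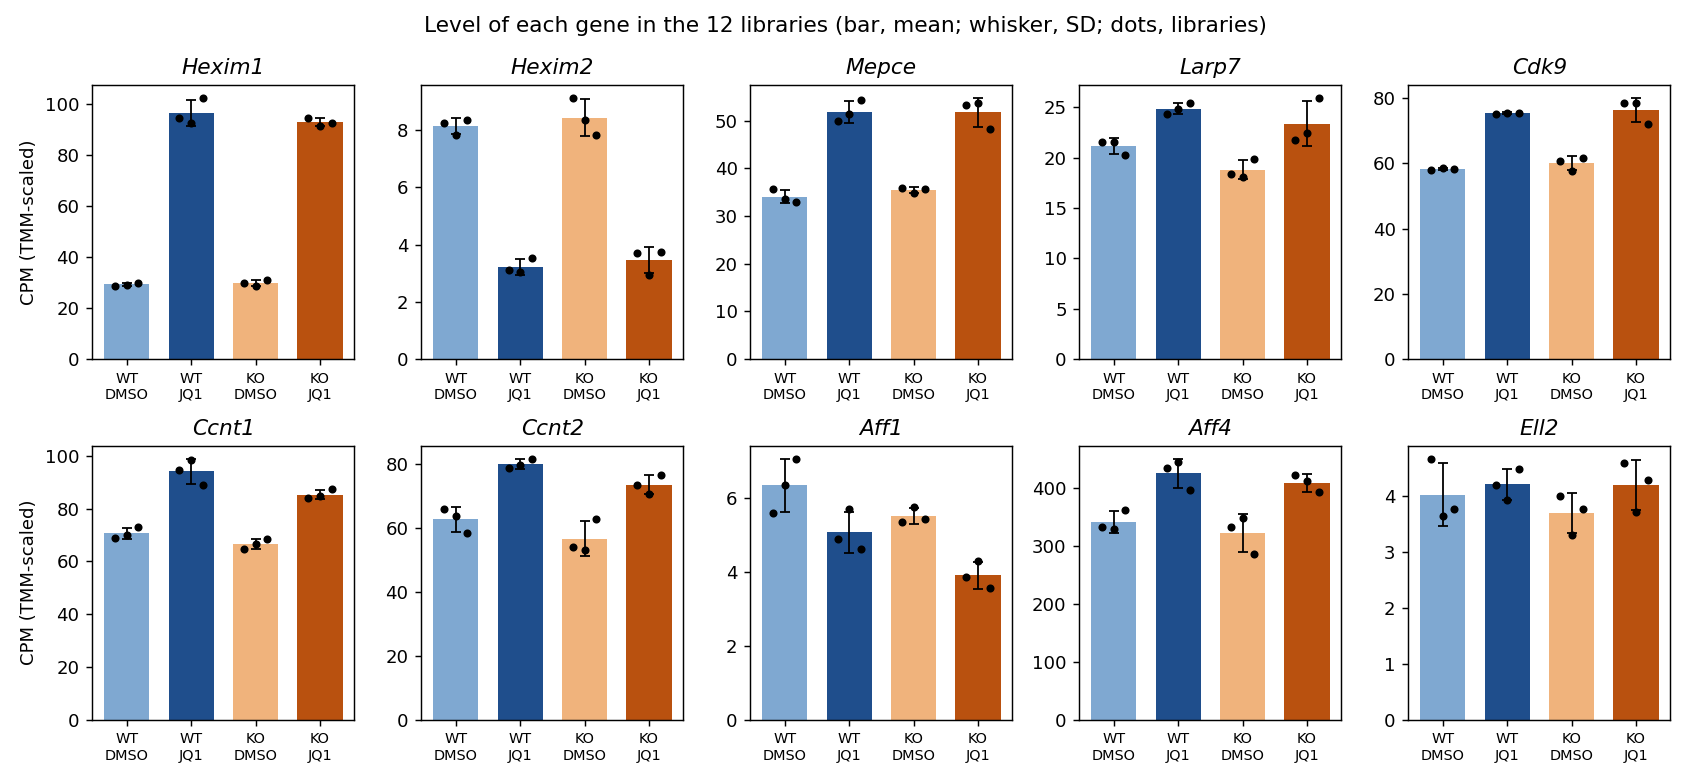
Level of each of the 10 genes in each of the 12 libraries, in CPM, by group (points, libraries). Hexim1 lies between 91.6 and 102.5 CPM in the JQ1 libraries and between 28.6 and 31.2 CPM in the DMSO libraries, and Hexim2 lies lower in the JQ1 than in the DMSO libraries.

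The question of the first comparison is how a BET inhibitor altered the messages of the elongation machinery. In WT neurons JQ1 raised the message of the inhibitor Hexim1 3.29-fold and lowered that of its paralog Hexim2 to 0.388 of its level. Both calls held under spike-in scaling, at log2 changes of 1.08 and -1.98. Centred on all genes, 7 of the 10 genes rose and 2 fell, at an adjusted p under 0.05. Over all genes tested 55.1% were called, 25.9% higher and 29.3% lower, and the libraries of JQ1 and DMSO did not overlap for 8 of the 10 genes against 62.6% of all genes. The median log2 change was 0.33 over the 10 genes and -0.0043 over all genes tested. Over all genes 3990 were called higher and 4517 lower. Scaling to the spike-ins gave 40 higher and 5814 lower. Under that scaling 3 of the 10 genes were called, Hexim1 higher and Hexim2 and Aff1 lower.

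HEXIM1 is the principal protein inhibitor of P-TEFb, and its RNA is widely used to follow exposure to BET inhibitors. Hexim1 measured 28.8, 29.2 and 29.9 CPM in the WT libraries in DMSO and 94.7, 92.7 and 102.5 CPM in those in JQ1. The lowest JQ1 library stood above the highest DMSO library by far more than the spread within either group. The log2 change was 1.72 (SE 0.0501, 95% interval 1.61 to 1.83, adjusted p = 7.03e-11 by edgeR). By p-value Hexim1 ranked 1 of 15433 genes, and by size it was the rise of rank 40. In KO neurons it measured 29.8, 28.6 and 31.2 CPM in DMSO and 94.7, 91.6 and 92.9 CPM in JQ1, a log2 change of 1.64 (SE 0.049, adjusted p = 7.97e-11), again rank 1 by p-value and 39 by size. Under spike-in scaling the log2 change was 1.08 in WT and 1.71 in KO neurons, called in both.

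HEXIM2 is a close relative of HEXIM1 that can take its place in the 7SK particle. Hexim2 measured 8.26, 7.84 and 8.36 CPM in WT neurons in DMSO and 3.10, 3.04 and 3.55 CPM in JQ1. The libraries of the treatments did not overlap, and the JQ1 libraries all stood under the lowest DMSO library. The log2 change was -1.37 (SE 0.108, adjusted p = 1.93e-07 by edgeR). In KO neurons Hexim2 measured 9.12, 8.36 and 7.84 CPM in DMSO and 3.69, 2.93 and 3.74 CPM in JQ1 (log2 change -1.31, SE 0.105, adjusted p = 1.88e-07 by edgeR). The inhibitor paralogs thus moved in opposite directions in each genotype. Their counts differ in precision, since Hexim2 had 76 to 540 counts per library and Hexim1 984 to 12057.

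The ratio of the Hexim messages, each per kilobase of exon, was computed within each library and so does not depend on the scaling between libraries. Hexim1 over Hexim2 was 2.44 ± 0.0809 in WT neurons in DMSO and 20.4 ± 0.655 in JQ1, and 2.41 ± 0.255 in KO neurons in DMSO and 18.5 ± 2.39 in JQ1 (SD, n = 3 each). The DMSO libraries ran from 2.22 to 2.70 and the JQ1 libraries from 16.9 to 21.2. Hexim1 over Cdk9, the inhibitor message over that of the kinase, was 0.664 ± 0.0128 in WT in DMSO and 1.69 ± 0.0872 in JQ1, and 0.655 ± 0.0107 and 1.61 ± 0.0828 in KO neurons. Every JQ1 library had more Hexim1 than Cdk9 message per kilobase and every DMSO library had less. No test was run on the ratios. Exon lengths came from a later build than that of the counts, which changes the ratios by a constant factor at most. They are the merged exons of all transcripts, 3495 bases for Hexim1 with 1 transcript and 4611 for Cdk9 with 9. Which message is the larger per kilobase rests on these lengths, since the transcripts expressed were not determined. The change of a ratio with JQ1 does not depend on such a constant factor.

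Hexim1 and Hexim2 are neighbours on chromosome 11 and lie on the same strand. Hexim1 is a single exon of 3495 bases and Hexim2 spans 7448 bases in 5 exon blocks (GENCODE, GRCm38). In the RefSeq gene order Plcd3 and Acbd4 come before Hexim1, and Fmnl1, which encodes a formin, is the next protein-coding gene after Hexim2. These neighbours were picked after their values were seen. With JQ1, Acbd4, an acyl-CoA binding protein gene, went from 5.37 ± 0.226 to 3.04 ± 0.428 CPM in WT (SD, n = 3; log2 change -0.87, SE 0.114, adjusted p = 1.88e-05 by edgeR) and changed by -0.89 in KO neurons. Plcd3, a phospholipase C gene, changed by -0.58 in WT (SE 0.108) and -0.51 in KO (SE 0.111), and Fmnl1 by -0.63 (SE 0.075) and -0.66 (SE 0.0726), each an edgeR call. Of the 5 consecutive protein-coding genes, Hexim1 was the 1 that rose and the other 4 fell, in both genotypes. Under spike-in scaling the directions were the same, and in KO neurons Plcd3, Acbd4 and Fmnl1 were then not called (-0.46, -0.84 and -0.61).

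**Figure D2:**
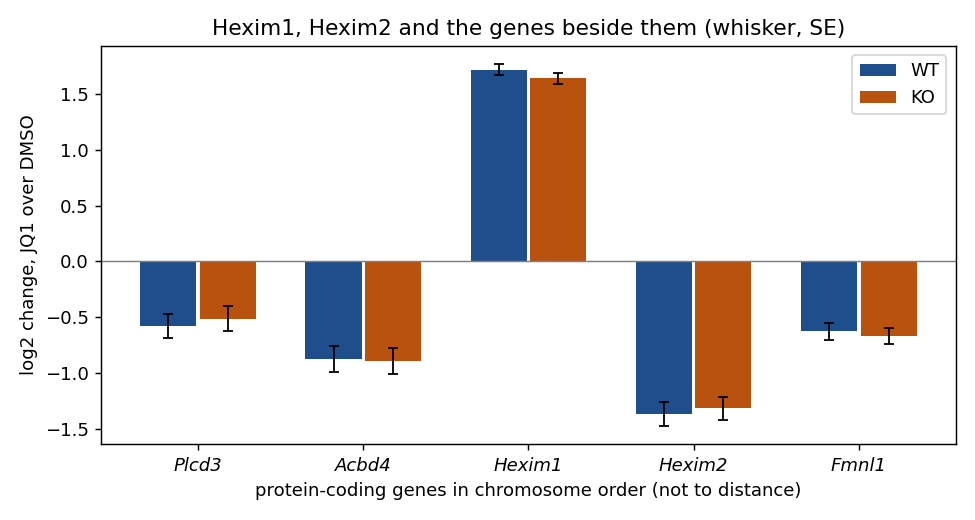
Log2 change with JQ1, with its SE, of Hexim1, Hexim2 and the adjacent protein-coding genes in their order along the chromosome, in WT and KO neurons. Hexim1 stands at 1.72 in WT and 1.64 in KO, and Plcd3, Acbd4, Hexim2 and Fmnl1 lie under 0.

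MEPCE is the capping enzyme of the 7SK RNA. Mepce measured 35.6, 33.7 and 33.0 CPM in WT neurons in DMSO and 49.9, 51.4 and 54.3 CPM in JQ1. The groups did not overlap. It rose by a log2 change of 0.60 (SE 0.0542, adjusted p = 6.51e-07 by edgeR), a direction that turned to -0.04, not called, under spike-in scaling. In KO neurons it measured 35.9, 34.8 and 35.7 CPM in DMSO and 53.4, 53.6 and 48.3 CPM in JQ1 (log2 change 0.55, SE 0.0531, adjusted p = 1.14e-06 by edgeR). After Hexim1 this was the largest rise among the 10 genes in each genotype.

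LARP7 binds the end of the 7SK RNA and keeps it stable. Larp7 measured 21.6, 21.6 and 20.3 CPM in WT neurons in DMSO and 24.3, 24.8 and 25.4 CPM in JQ1. The groups did not overlap, although they lay close together. The message rose by 0.23 (SE 0.0691, adjusted p = 0.0111 by edgeR), the smallest called rise of the 10 genes in WT, and under spike-in scaling the value was -0.41, not called. In KO neurons it measured 18.4, 18.1 and 19.9 CPM in DMSO and 21.7, 22.5 and 25.9 CPM in JQ1 (log2 change 0.31, SE 0.0682, adjusted p = 0.0014 by edgeR). The ratio of Mepce to Larp7 per kilobase was 1.07 ± 0.0312 in WT in DMSO and 1.39 ± 0.0290 in JQ1, and 1.26 ± 0.0545 and 1.49 ± 0.217 in KO neurons (SD, n = 3 each).

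CDK9 is the catalytic subunit of P-TEFb. Cdk9 measured 58.0, 58.7 and 58.1 CPM in WT neurons in DMSO and 75.0, 75.4 and 75.5 CPM in JQ1. Of the 10 genes Cdk9 varied least between the WT libraries of a group, and the groups did not overlap. Cdk9 rose by 0.37 (SE 0.0447, adjusted p = 9.44e-06 by edgeR), against -0.27, not called, under spike-in scaling. In KO neurons it measured 60.8, 57.7 and 61.7 CPM in DMSO and 78.5, 78.4 and 71.9 CPM in JQ1 (log2 change 0.35, SE 0.0441, adjusted p = 1.48e-05 by edgeR).

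Cyclin T1 and cyclin T2 are the alternative regulatory subunits that activate CDK9. Ccnt1 measured 69.0, 70.1 and 72.9 CPM in WT neurons in DMSO and 94.9, 98.6 and 89.1 CPM in JQ1. Ccnt2 measured 66.1, 64.0 and 58.4 CPM in DMSO and 78.9, 79.7 and 81.8 CPM in JQ1. Neither cyclin had overlapping groups. Ccnt1 rose by 0.42 (SE 0.0464, adjusted p = 4.54e-06 by edgeR), against -0.21, not called, under spike-in scaling. Ccnt2 rose by 0.35 (SE 0.0644, adjusted p = 0.000378 by edgeR), against -0.30, not called, under spike-in scaling. In KO neurons Ccnt1 changed by 0.36 (SE 0.046, adjusted p = 1.62e-05) and Ccnt2 by 0.38 (SE 0.0639, adjusted p = 0.000186), both edgeR calls. Ccnt1 over Ccnt2 per kilobase was 1.52 ± 0.144 and 1.59 ± 0.104 in WT in DMSO and JQ1, and 1.59 ± 0.109 and 1.56 ± 0.0458 in KO neurons (SD, n = 3 each), so the balance of the cyclin messages stayed within the spread between libraries. The summed cyclin T message over that of Cdk9 was 1.01 ± 0.00957 in WT in DMSO and 1.03 ± 0.0276 in JQ1, within that spread of each other. In KO neurons it was 0.911 ± 0.0374 and 0.927 ± 0.0714. In DMSO the KO libraries, at 0.869 to 0.941, all lay under the WT libraries, at 1.01 to 1.02, a ratio within libraries on which no test was run. In JQ1 the KO libraries, at 0.881 to 1.01, overlapped the WT libraries, at 0.998 to 1.05. Of all genes tested, 37.6% did not overlap between KO and WT libraries in DMSO, and that share was not computed for ratios.

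AFF1 and AFF4 are the alternative scaffolds of the super elongation complex. Aff4 measured 331.9, 328.7 and 362.5 CPM in WT neurons in DMSO and 433.9, 444.6 and 396.6 CPM in JQ1. Aff1 measured 5.60, 6.34 and 7.04 CPM in DMSO and 4.88, 5.68 and 4.62 CPM in JQ1. The Aff4 groups did not overlap, whereas 1 Aff1 library in JQ1, at 5.68 CPM, lay within the range of the DMSO libraries. Aff4 rose by 0.32 (SE 0.0701, adjusted p = 0.00152 by edgeR), against -0.30, not called, under spike-in scaling. Aff1 fell by 0.29 on the log2 scale (SE 0.109, adjusted p = 0.0323 by edgeR). This Aff1 call was lost under DESeq2 (adjusted p = 0.0518) and without WT DMSO replicate 2 (0.0755), WT DMSO replicate 3 (0.181), WT JQ1 replicate 1 (0.139) or WT JQ1 replicate 3 (0.089).

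In KO neurons Aff4 measured 331.7, 347.8 and 285.2 CPM in DMSO and 422.2, 411.3 and 392.5 CPM in JQ1. Aff1 measured 5.34, 5.74 and 5.43 CPM in DMSO and 3.85, 4.28 and 3.56 CPM in JQ1. Neither scaffold had overlapping groups. Aff4 rose by 0.35 (SE 0.07, adjusted p = 0.000763 by edgeR) and Aff1 changed by -0.48 (SE 0.109, adjusted p = 0.00173 by edgeR), and the Aff1 call held without each KO library in turn. Under spike-in scaling neither was called (adjusted p = 0.594 for Aff4 and 0.537 for Aff1 by edgeR). Aff4 over Aff1 per kilobase went from 38.1 ± 3.11 in DMSO to 59.3 ± 3.84 in JQ1 in WT neurons and from 41.1 ± 3.62 to 74.1 ± 5.59 in KO neurons (SD, n = 3 each). In every JQ1 library this ratio was above every DMSO library.

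ELL2 raises the elongation rate of the polymerase within the super elongation complex. Ell2 measured 4.66, 3.63 and 3.77 CPM in WT neurons in DMSO and 4.19, 3.93 and 4.48 CPM in JQ1. The groups overlapped, and so they did in KO neurons, at 3.999, 3.30 and 3.76 CPM in DMSO and 4.59, 3.71 and 4.28 CPM in JQ1. The log2 change was 0.05 (95% interval -0.22 to 0.31, adjusted p = 0.772 by edgeR) in WT and 0.17 (95% interval -0.083 to 0.43, adjusted p = 0.23) in KO neurons. Ell2 had 96 to 511 counts per library.

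In KO neurons as a whole, 7 of the 10 genes were called higher and 2 lower, where 57.1% of all genes were called, 27.7% higher and 29.4% lower. The libraries did not overlap for 9 of the 10 genes, against 60.7% of all genes, and the median log2 change was 0.35 over the 10 and 0.0014 over all genes. Without both KO replicate 3 libraries the counts were again 7 higher and 2 lower. Under spike-in scaling 2 of the 10 were called, Hexim1 higher (log2 change 1.71) and Hexim2 lower (-1.22), and of all genes 206 were called higher and 1314 lower, against 4279 and 4538.

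**Figure D3:**
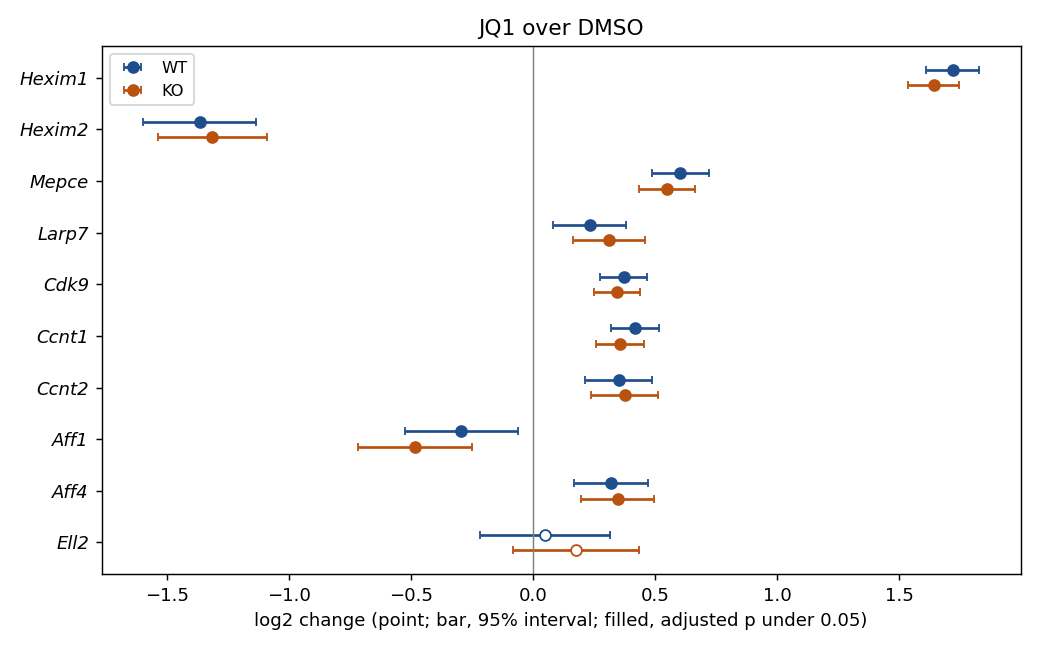
Log2 change of each of the 10 genes with JQ1 in WT and in KO neurons (points; bars, 95% intervals; filled points, adjusted p under 0.05 by edgeR). Changes are centred on all genes: Hexim1 (1.72 in WT) and Hexim2 (-1.37) keep their directions under spike-in scaling, while in WT the rises of Mepce, Larp7, Cdk9, Ccnt1, Ccnt2 and Aff4 turn to values from -0.41 to -0.04 that are not called.

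The question of the third comparison is whether the JQ1 response depended on the genotype. Over all 15433 genes the difference of the responses was called for 0 genes by edgeR and 0 by DESeq2, and 355 genes (2.30%) had an unadjusted p under 0.05. Among the 10 genes 0 had an unadjusted p under 0.05, the lowest being 0.239 for Aff1. The difference, KO response minus WT response, was -0.08 for Hexim1 (95% interval -0.23 to 0.070), 0.05 for Hexim2 (-0.27 to 0.37) and -0.19 for Aff1 (-0.52 to 0.14). Over the 10 genes it ran from -0.19 to 0.13. These values and intervals hold for the centring on all genes. Under spike-in scaling, which moved the median difference of all genes to 0.70, every one of the 10 differences was above 0, from 0.47 for Aff1 to 0.86 for Ell2, with Hexim1 at 0.63 and Hexim2 at 0.76, and 0 were called. A p that misses the threshold does not show that the genotypes responded alike.

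The loss of Fmr1 was next compared within each treatment. In DMSO 0 of the 10 genes were called between KO and WT neurons by edgeR, and 0 by DESeq2, where 15.0% of all genes were called by edgeR, 7.21% higher and 7.76% lower. The log2 changes ran from -0.20 for Aff1 to 0.057 for Mepce. Larp7 (-0.17, SE 0.0692, adjusted p = 0.11) and Ccnt2 (-0.15, SE 0.0644, adjusted p = 0.134) had an unadjusted p under 0.05 by edgeR, 2 of the 10. Larp7 measured 21.6, 21.6 and 20.3 CPM in WT and 18.4, 18.1 and 19.9 CPM in KO neurons, which do not overlap. Ccnt2 measured 66.1, 64.0 and 58.4 CPM in WT and 54.2, 53.1 and 62.9 CPM in KO neurons, where the KO replicate 3 library lay within the WT range.

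Without both KO replicate 3 libraries Larp7 (-0.21, adjusted p = 0.0235 by edgeR) and Ccnt2 (-0.23, adjusted p = 0.0133) were called lower in KO neurons. Without KO DMSO replicate 3 alone Ccnt2 was called (-0.21, adjusted p = 0.0287). Ccnt1 measured 69.0, 70.1 and 72.9 CPM in WT and 64.8, 66.5 and 68.7 CPM in KO neurons, groups that do not overlap but differ by a log2 change of -0.08 that was not called (adjusted p = 0.231 by edgeR). Non-overlap was seen for these 2 of the 10 genes, Larp7 and Ccnt1, and for 37.6% of all genes. Mepce over Larp7 per kilobase was 1.04 to 1.10 in the WT and 1.20 to 1.30 in the KO libraries in DMSO. In JQ1 the genotypes overlapped in this ratio, at 1.36 to 1.42 in WT and 1.24 to 1.64 in KO. In the authors' deposited table of KO over WT the log2 values of the 10 genes ran from -0.145 to 0.0684, and the lowest adjusted p, that of Larp7, was 0.152. Under spike-in scaling all 10 genes were called lower in KO neurons, as were 11990 of all genes with 4 called higher, against 1198 and 1113 otherwise.

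In JQ1 1 of the 10 genes was called between KO and WT neurons, where 8.97% of all genes were, 4.85% higher and 4.13% lower. Aff1 measured 4.88, 5.68 and 4.62 CPM in WT and 3.85, 4.28 and 3.56 CPM in KO neurons. The groups did not overlap. Aff1 was lower by a log2 change of -0.39 (SE 0.111, adjusted p = 0.0431 by edgeR). That call was lost without WT JQ1 replicate 1 (adjusted p = 0.0745), WT JQ1 replicate 2 (0.227), KO JQ1 replicate 1 (0.115) or KO JQ1 replicate 3 (0.0845), without both KO replicate 3 libraries (0.0864), in a fit of these groups alone (0.0928) and under spike-in scaling. The log2 change was -0.51 under spike-in scaling and between -0.48 and -0.28 in the other alternatives.

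Ccnt1 measured 94.9, 98.6 and 89.1 CPM in WT and 83.9, 84.7 and 87.3 CPM in KO neurons in JQ1. These libraries do not overlap, and the log2 change of -0.15 did not pass (SE 0.0459, adjusted p = 0.0618 by edgeR). It passed under DESeq2 (-0.14, adjusted p = 0.045), without both KO replicate 3 libraries (-0.16, adjusted p = 0.0421 by edgeR) and without WT JQ1 replicate 3 (-0.18, adjusted p = 0.0306). Groups did not overlap for 3 of the 10 genes, Ccnt1, Ccnt2 and Aff1, and for 27.0% of all genes. Hexim1 differed by -0.05 (95% interval -0.15 to 0.049) and Hexim2 by 0.10 (-0.14 to 0.35), against -0.01 under spike-in scaling, between the genotypes in JQ1. Of all genes 748 were called higher and 637 lower. With the spike-ins as the scale these counts were 5 and 18. The comparisons share their control libraries, so agreement between them is not independent.

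**Figure D4:**
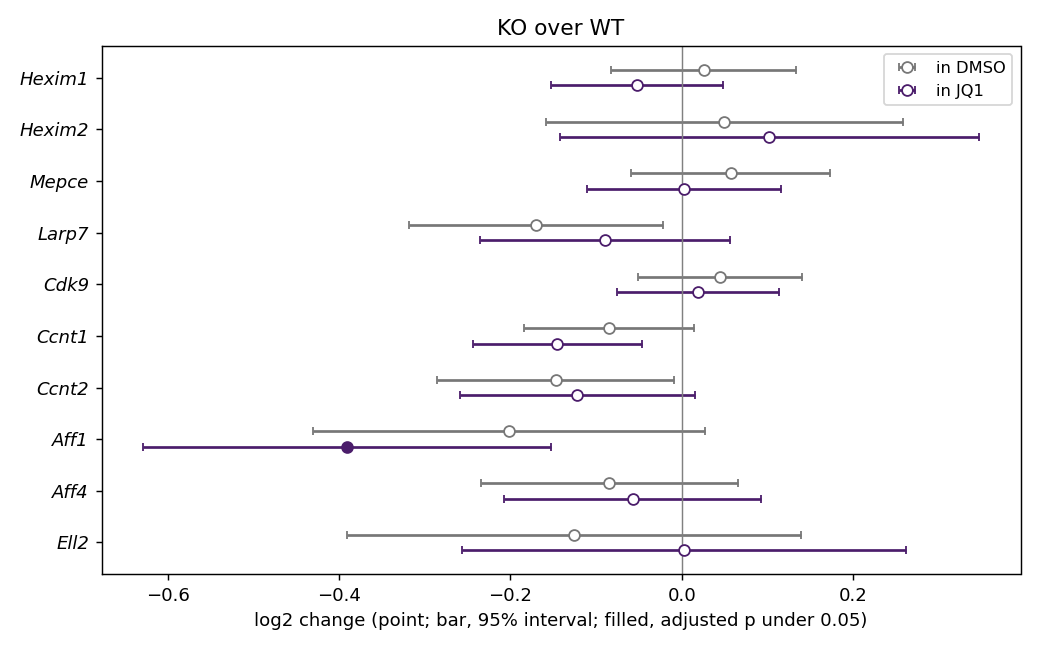
Log2 change of each of the 10 genes in KO over WT neurons, in DMSO and in JQ1 (points; bars, 95% intervals; filled point, adjusted p under 0.05 by edgeR). Changes are centred on all genes and run from -0.39 to 0.10, with Aff1 in JQ1 the called value, while under spike-in scaling every value in DMSO lies under 0.

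Levels between the genes can be compared only per kilobase of exon. The length used is that of the merged exons of all transcripts, and the order may differ for the transcripts expressed. In WT neurons in DMSO the mean levels in CPM per kilobase were 25.4 for Aff4, 12.6 for Cdk9, 9.60 for Mepce, 8.94 for Larp7, 8.39 for Hexim1, 7.72 for Ccnt1, 5.09 for Ccnt2, 3.44 for Hexim2, 0.669 for Aff1 and 0.409 for Ell2. The libraries of neighbours in this order did not overlap. In WT neurons in JQ1 Hexim1 moved from rank 5 to rank 2 of the 10, at 27.7 CPM per kilobase between Aff4 at 31.6 and Cdk9 at 16.3, and Larp7 (10.5) and Ccnt1 (10.3) overlapped. Hexim2 stayed at rank 8, at 1.36. In KO neurons Hexim1 moved from rank 4, where it overlapped Larp7, to rank 2. Ell2 and Aff1 overlapped in KO neurons in JQ1. In every group the Aff4 message exceeded that of Aff1, and the Hexim1 message that of Hexim2.

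The other genes of the pathway were counted from a list of 40, of which 39 were tested and Ell3 was not. Centred on all genes, JQ1 raised 19 and lowered 8 of the 39 in WT neurons and raised 19 and lowered 5 in KO neurons, with median log2 changes of 0.16 and 0.16. Over all genes tested 25.9% were called higher and 29.3% lower in WT, and 27.7% and 29.4% in KO neurons. The all-gene counts under spike-in scaling are given with each comparison above. Under spike-in scaling 0 were called higher and 9 lower in WT, where 3 of the 39 values lay above 0, and 1 higher and 0 lower in KO neurons. The directions given next are therefore centred on all genes. Under spike-in scaling the rises in WT are not called and, except for Ctr9 and Eaf2, turn to values under 0, while the 8 falls in WT stay called.

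Among the BET genes counted, whose proteins JQ1 displaces from chromatin, Brd2 rose in each genotype (0.63 in WT, SE 0.0419, adjusted p = 4.28e-08 by edgeR; 0.61 in KO), as did Brd3 (0.16 and 0.16). Brdt, a BET gene known for its role in male germ cells, fell (-0.25 in WT and -0.32 in KO). Of the 6 pausing factor genes, 3 were called higher and 2 lower in WT and 1 each way in KO. Supt5h, a subunit of the pausing and elongation factor DSIF, changed by 0.25 and 0.19, and the NELF subunit genes Whsc2 and Th1l by -0.28 and -0.19 in WT. In KO neurons Th1l changed by -0.17, called, and Whsc2 by -0.13, which was not (adjusted p = 0.0601 by edgeR).

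Of 7 other super elongation complex genes 3 were called higher and 0 lower in each genotype. Ell, a paralog of Ell2, changed by 0.32 in WT (SE 0.0797, adjusted p = 0.00373 by edgeR) and 0.24 in KO. Eaf1, which encodes an ELL-associated factor, changed by 0.25 and 0.37, and its paralog Eaf2 by 1.20 and 1.06, at a level of 0.242 ± 0.101 CPM in WT in DMSO and 0.527 ± 0.0927 CPM in JQ1 (SD, n = 3). In the little elongation complex, which serves small nuclear RNA genes, Zc3h8 rose (0.46 in WT, 0.54 in KO) and Narg2 fell (-0.40 and -0.35), while BC018507 was at 0.09 in WT, not called, and 0.16 in KO, called.

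In the PAF1 complex, an elongation complex that travels with the polymerase, 3 of 6 genes were called higher and 1 lower in WT, and 4 and 1 in KO. Ctr9 changed by 0.65 (SE 0.0451, adjusted p = 6.22e-08 by edgeR) and 0.69, Rtf1 by 0.49 and 0.55, and Paf1 by 0.49 and 0.47. All 3 genes of the other elongation kinases, which phosphorylate the polymerase further along the gene, were called higher in both genotypes: Cdk13 by 0.46 and 0.40, Cdk12 by 0.52 and 0.54, and their cyclin gene Ccnk by 0.34 and 0.34. Among 6 genes of later elongation factors, Supt6h, a histone chaperone, changed by 0.37 in WT and 0.28 in KO. Iws1 and Ssrp1 changed by -0.17 and -0.11 in WT, called, and by -0.08 and -0.04 in KO, not called.

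Factors that release P-TEFb from the 7SK particle include the phosphatases encoded by Ppm1a and Ppm1g and the helicase encoded by Ddx21. With JQ1 Ppm1a changed by 0.21 in WT (SE 0.0408, adjusted p = 0.000545 by edgeR) and 0.22 in KO, Ddx21 by 0.24 and 0.26, and Ppm1g by 0.28 and 0.34, each called. Jmjd6, another gene of this group, which encodes a hydroxylase, was called lower, at -0.23 in WT (adjusted p = 0.00621 by edgeR) and -0.16 in KO (adjusted p = 0.0353), and is named after its values were seen. Of the 5 release factor and 7SK genes tested, 3 were thus higher and 1 lower in each genotype, and the fifth, Rn7sk, was not called. Between genotypes, 4 of the 39 genes were called higher and 3 lower in KO neurons in DMSO, and 2 higher and 2 lower in JQ1. Over all genes tested the shares were 7.21% higher and 7.76% lower in DMSO, and 4.85% and 4.13% in JQ1. Under spike-in scaling 33 of the 39 were called lower in KO neurons in DMSO and 0 higher, and 0 of the 39 were called in JQ1. Without that scaling, among the genes named by the rule, Supt5h (0.21), Paf1 (0.16) and Supt6h (0.22) were called higher and Iws1 (-0.23) lower in DMSO, and Supt5h (0.15) was called higher and Brdt (-0.31) and Cdk13 (-0.18) lower in JQ1, where Jmjd6 (0.22) was also called higher.

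**Figure D5:**
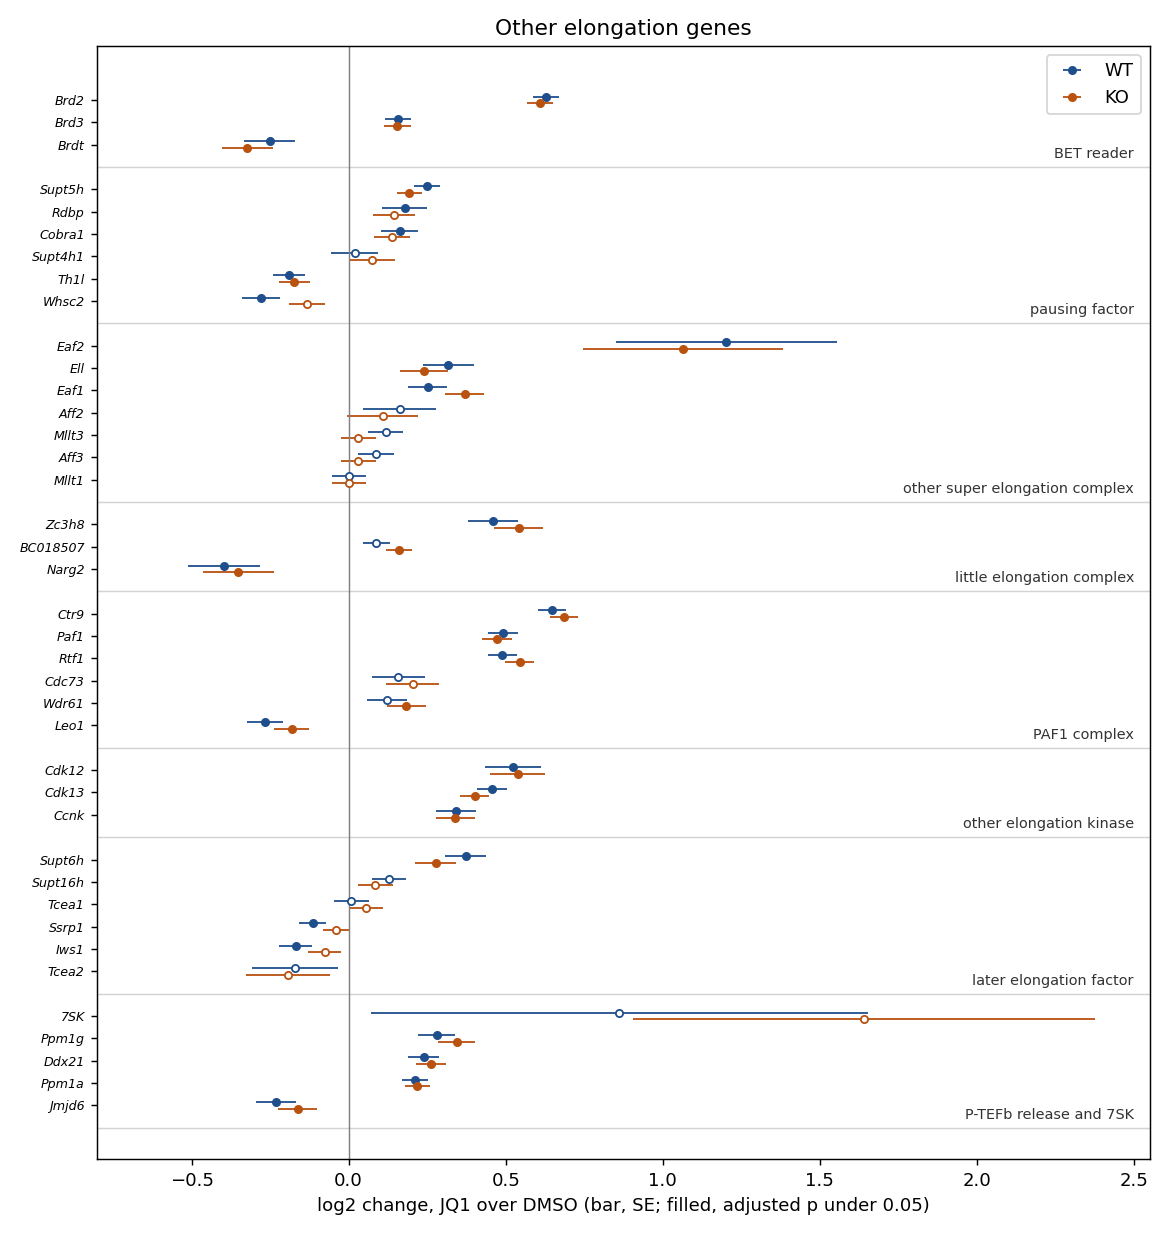
Log2 change with JQ1 of 39 other elongation genes in WT and KO neurons, by subgroup (points; bars, SE; filled points, adjusted p under 0.05 by edgeR). Centred on all genes, 19 were called higher in each genotype, against 25.9% of all genes tested in WT and 27.7% in KO. Under spike-in scaling 0 were called higher in WT and 1 in KO. The row labelled 7SK is the Rn7sk gene.

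The genes whose pattern was most like that of Hexim1 were sought among the 10598 tested genes that averaged 3 CPM or more, by Pearson's r of log2 CPM over the 12 libraries. The libraries fall into a DMSO and a JQ1 cluster and share their scaling, so r is given only as the measure of likeness. The nearest were Akap13 (r = 0.997), Ddrgk1 (0.996), Chchd7 (0.996), Hist3h2a (0.995) and Fuca1 (0.995). Their log2 changes with JQ1 in WT and KO neurons were 2.21 and 2.25 for Akap13, 0.66 and 0.63 for Ddrgk1, 1.82 and 1.83 for Chchd7, 1.39 and 1.40 for Hist3h2a and 0.94 and 0.85 for Fuca1. They thus shared the pattern over libraries but not the size of the change.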

How the data were processed

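The deposited count table holds whole-number read counts per gene that the authors obtained, per the submitters' processing notes, with TopHat2 2.1.0 on mm9, SAMtools 0.1.19 and HTSeq 0.6.1. Neither strandedness nor counting mode was stated, so overlapping genes on opposite strands are uncertain. Ccnt1 shares 695 exon bases with the antisense gene 9330020H09Rik, which had 0.165 to 0.538 CPM. Per the labels' protocols, TruSeq libraries of column-purified RNA were sequenced as single reads of 75 bases. The authors' deposited table of KO over WT gives a mean signal (normalised count), a log2 fold change, a Wald score and p-values; it was quoted, not tested.

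The fit used edgeR 4.0.16 under R 4.3.3 (low-count filter filterByExpr, minimum 10, TMM scaling, 1 mean per group, quasi-likelihood F tests with 8 residual degrees of freedom, biological coefficient of variation 6.69%). P-values were adjusted by the Benjamini-Hochberg method over 15433 genes, 21877 having been dropped, and a gene is called at an adjusted p under 0.05. CPM use TMM-scaled library sizes without the 92 spike-in rows, and CPM per kilobase divide by merged GENCODE exon length. Intervals cover the fitted spread between libraries. Between replicates the chi-square of counts was 4.94 to 41.4 per degree of freedom, more than counting error.

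The 10 genes, as members of the set, and the lists were chosen with earlier results of these data known. All 10 genes are named, and of the other pathway genes up to 3 per subgroup with the smallest adjusted p for JQ1 in WT; 1 gene of the pathway list is not reported here. Alternatives were DESeq2 1.42.0, no filter, spike-in scaling, fewer groups, replicate blocks and libraries left out. Whether replicate numbers pair libraries was read from how libraries of equal number deviate together from their group means (correlations). For JQ1 against DMSO these were 0.21 to 0.29 in KO, where all 3 pairs passed 0.1, and 0.094 to 0.16 in WT. In each genotype all 3 numbers correlated best with their own. Between genotypes the correlations were -0.18 to 0.011 in DMSO and -0.016 to 0.12 in JQ1. The fit reported holds no term for this pairing. Tested on simulated data for JQ1 in WT, with 200 of 15433 genes changed, the fit recovered 81% of 2-fold changes and 40% of 25% changes. It called 0.0525% of unchanged genes. In the data 55.1% of genes were called for this comparison, a far larger share, so these rates hold for the simulated setting alone.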

Additional observations from a re-analysis of the deposited data

How the results depend on the processing

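For the 10 genes, 680 alternative values were computed over 5 comparisons, and 599 kept both their direction and their side of the threshold. The call changed in 41, 24 of them under spike-in scaling, and the sign in 50, of which 40 were called neither in the fit reported nor in the alternative. Under spike-in scaling the called genes of the 10 numbered 3 for JQ1 in WT, 2 for JQ1 in KO, 10 for KO over WT neurons in DMSO and 0 in JQ1, and all called genes numbered 1520, 11994 and 23 in the last 3 of these; the shift of the all-gene median is part of that construction, and which scaling fits these cells was not tested. Under it the sign changed in 20 values, and of these 10 had a call on one side: for JQ1 in WT, Mepce -0.044, Larp7 -0.41, Cdk9 -0.27, Ccnt1 -0.21, Ccnt2 -0.30 and Aff4 -0.30, and, for KO against WT in DMSO, Hexim1 -0.79, Hexim2 -0.77, Mepce -0.76 and Cdk9 -0.77. The others were Ell2 at -0.59 for JQ1 in WT, for KO against WT in JQ1 Hexim2 -0.010, Mepce -0.11, Cdk9 -0.096 and Ell2 -0.12, and for the difference of the responses Hexim1 0.63, Mepce 0.65, Cdk9 0.68, Ccnt1 0.62 and Aff1 0.47. The other 30 sign changes were of values not called on either side. Without both KO replicate 3 libraries they were Hexim1 -0.0074 (KO against WT, DMSO), Ell2 -0.017 (KO against WT, JQ1) and, for the difference, Hexim2 -0.058, Cdk9 0.034 and Aff4 -0.024. Leaving out 1 library gave, for Ell2 with JQ1 in WT, -0.018 to 0.17, for Aff4 in KO against WT in DMSO, -0.13 to 0.017, and for KO against WT in JQ1, Cdk9 -0.0017 to 0.058, Ell2 -0.068 to 0.099 and Mepce -0.033 to 0.048. For the difference it gave Aff4 -0.075 to 0.065, Ccnt2 -0.043 to 0.083, Cdk9 -0.076 to 0.013 and Hexim2 -0.022 to 0.18. For KO against WT in DMSO, 2 of the 10 were called without both KO replicate 3 libraries, and leaving out 1 library gave 0 to 1 of the 10 and 885 to 2540 genes. For KO against WT in JQ1, DESeq2 called 2 of the 10, a fit of the groups alone 0 and 630 genes, and the fit without both KO replicate 3 libraries 2469 genes; leaving out 1 library gave 0 to 2 of the 10 and 534 to 2027 genes. The cause was not tested, beyond fewer libraries in these fits. Leaving out 1 library gave 8 to 9 of the 10 genes called for JQ1 in WT and 9 in KO.

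With the replicate number as a block, 9 of the 10 genes were called for JQ1 in each genotype. For KO over WT neurons 0 were called in DMSO and 1 in JQ1. This block changed 0 calls of the 10 genes and moved Ell2 for KO against WT in JQ1 to -0.0051. It gives WT and KO libraries of equal number a shared effect, although equal numbers did not deviate together between genotypes in DMSO. A block by genotype and number was also fitted for the JQ1 responses, and the JQ1 calls of the 10 genes held. Without the filter on low counts 0 calls of the 10 changed. Depth limits Hexim2, Aff1 and Ell2 most, at lowest counts of 76, 99 and 96 per library.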

Other observations

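The 7SK RNA itself, which scaffolds the inhibited form of P-TEFb, is poorly captured when libraries are made from messenger RNA, and its gene has many near-identical copies, so its counts are uncertain. Its own row held 15 to 207 counts per library, and 331 rows named 7SK together held 48 to 355. It measured 0.498, 0.395 and 1.40 CPM in WT neurons in DMSO and 1.21, 1.59 and 1.21 CPM in JQ1. In KO neurons it measured 0.891, 0.402 and 0.681 CPM in DMSO and 5.41, 0.530 and 0.538 CPM in JQ1, where 1 library stood far above the others. The log2 change with JQ1 was 0.86 (SE 0.791) in WT and 1.64 (SE 0.735, adjusted p = 0.0701 by edgeR's quasi-likelihood test) in KO neurons, neither called, and under spike-in scaling 1.76 (adjusted p = 0.000113) in KO neurons. The level of the 7SK RNA can therefore not be set beside those of its protein partners.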
